A study of Mus musculus with 3 samples.

Results

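Lgr5-set cells are basal mammary cells that carry transcripts of at least 2 of the 6 genes Lgr5, Gfra2, Dkk3, Scube3, Grik3 and Cxcl14. A cell counted as basal when its UMIs (unique molecular identifiers, each standing for 1 captured transcript molecule) of Krt5, Krt14, Krt17 and Acta2 summed to at least 5 and to at least 3 times each of the sums of luminal progenitor genes (Csn3, Elf5, Kit, Aldh1a3) and hormone-responsive luminal genes (Prlr, Areg, Pgr, Esr1, Cited1). A basal cell joined the Lgr5 set when it held more genes of these 6 than of each of the 3 rival sets of 6 genes. The rivals are called here the Vcan set (Serpinb11, Vcan, Igfbp2, Ccnd2, Capn6, Moxd1), the Eln set (Cpm, Mmp2, Eln, Fmod, Il17b, Dlk2) and the Kctd4 set (Kctd4, Ackr4, Ntn4, Osr1, Mir143hg, Fbxl22). The rule found 2049 Lgr5-set cells among 10939 basal cells, 26320 cells that passed quality filters and 26845 deposited barcodes. The remaining 8890 are called other basal cells: 886 belonged to the Vcan set, 4559 to the Eln set, 127 to the Kctd4 set and 3318 to none.

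Basal cells form the outer layer of mammary ducts and alveoli. They include myoepithelial cells, which contract under oxytocin to eject milk, and cells that can rebuild a gland after transplantation. Lgr5 is a receptor for R-spondins, secreted proteins that strengthen Wnt signalling by keeping Frizzled receptors at the cell surface, and it marks stem cells of the intestine and hair follicle. Gfra2 is the co-receptor through which neurturin, a relative of GDNF, signals by way of the receptor kinase Ret. Dkk3 is a secreted relative of the Dickkopf inhibitors of Wnt signalling. Scube3 is a secreted protein with EGF-like domains, Grik3 a subunit of kainate-type glutamate receptors, and Cxcl14 a chemokine.

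The cells came from 3 droplet libraries (10x Genomics 3' v2 chemistry) in 1 untreated group, and the labels name no genetic change. Tissue from number 4 mammary glands of 10-week-old FVB/NJ females, 4 animals to a pool, was dissociated with collagenase and trypsin, and sorted by flow cytometry for live epithelial cells with antibodies to CD49f and EpCAM and to the blood and vessel antigens CD31, CD45 and Ter119. The same text stands for all 3 libraries, and no source used here says whether 1 pool of animals served them all. Beside counting noise, the p-values therefore reflect no spread other than that between libraries, and that spread may be technical. The test used below shares its estimate of this spread across genes. A p-value thus does not rest on the gene's own 3 within-library ratios alone. No contrast between libraries is labelled, and the comparisons were made between groups of cells within the same libraries.

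Libraries 1, 2 and 3 held 18584156, 27220670 and 30984706 UMIs in 6691, 9034 and 11120 barcodes. Library 1 stood apart in its makeup: 26.5% of its kept cells were basal, against 54.0% in library 2 and 40.1% in library 3. Between 77 and 146 cell barcodes were shared by each pair of libraries. Between every 2 libraries, counts of Lgr5-set cells differed beyond sampling noise, with a chi-square per degree of freedom of 1.97 to 9.09 over genes. Results that rest on 1 library are given below with and without it. A call given as lost without 1 library comes with its log2 fold change in that fit. A fit on 2 libraries can lose a call while the fold change stays alike.

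Lgr5-set cells and other basal cells were of similar depth. Their median UMI count was 2066, 2143 and 1749 in Lgr5-set cells of libraries 1, 2 and 3, against 2025, 2213.5 and 1767 in other basal cells. The median mitochondrial share was 2.76%, 1.80% and 1.91% in Lgr5-set cells and 2.94%, 1.78% and 1.99% in other basal cells. UMIs of ribosomal proteins made up a median of 18.8%, 22.0% and 22.5% of Lgr5-set cells, against 20.7%, 23.4% and 24.4% of other basal cells, lower in Lgr5-set cells of all 3 libraries.

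The basal label was checked against 4 genes that the rule did not read. Oxtr, the oxytocin receptor of myoepithelium, averaged 479 ± 116 CPM (a gene's UMIs scaled to the same total in every class and library) in Lgr5-set cells, 366 ± 44.2 CPM in other basal cells and 53.4 ± 15.5 CPM in cells that were not basal (SD, n = 3 libraries each, as for the levels that follow). Trp63, the transcription factor p63 of basal epithelium, averaged 171 ± 12.2 CPM in Lgr5-set cells, 186 ± 14.2 CPM in other basal cells and 9.79 ± 2.21 CPM in cells that were not basal. The smooth-muscle myosin Myh11 averaged 1200 ± 167 CPM, 1294 ± 223 CPM and 59.9 ± 26.0 CPM in the same order of classes, and the myosin kinase Mylk 962 ± 146 CPM, 1188 ± 280 CPM and 51.7 ± 22.3 CPM. All 4 were far above their level outside the basal class, so the label basal fits these cells. Markers of cell types that the sort should remove were low in Lgr5-set cells. The summed level over the 3 libraries was 2.098 to 4.76 CPM for 5 immune markers (Cd3e at 0), 2.47 to 5.60 CPM for 4 erythroid markers (Alas2 at 0), 1.65 to 3.57 CPM for 4 skeletal muscle markers and 1.399 to 2.97 CPM for 4 adipocyte markers (Cidec at 0). In other basal cells these sums were 2.80 to 4.61 CPM, 4.19 to 104.8 CPM, 2.40 to 2.83 CPM and 0.7998 to 1.41 CPM. Schwann cell markers summed to 91.6 to 108 CPM in Lgr5-set cells with S100b at 0, and to 81.6 to 121 CPM in other basal cells. Most of this was Sox10, at 92.1 ± 6.69 CPM in Lgr5-set cells, 96.4 ± 21.5 CPM in other basal cells and 122 ± 8.43 CPM in cells that were not basal. Markers of skin and hair follicle summed to 33.7 to 70.8 CPM in Lgr5-set cells, with Krt25, Krt77 and Krtdap at 0, and to 41.2 to 124 CPM in other basal cells. The rule's own basal genes were, in Lgr5-set cells, 3197 ± 249 CPM for Krt14, 2338 ± 47.4 CPM for Krt17, 1034 ± 212 CPM for Krt5 and 5601 ± 953 CPM for Acta2, against 2392 ± 211, 1374 ± 442, 787 ± 104 and 6506 ± 1136 CPM in other basal cells.

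The share of basal cells in the Lgr5 set differed between libraries. It was 33.1% in library 1 (556 of 1681 cells, exact 95% binomial interval 30.8% to 35.4%), 12.7% in library 2 (613 of 4827, 11.8% to 13.7%) and 19.9% in library 3 (880 of 4431, 18.7% to 21.1%), with a mean of 21.9% ± 10.3 (SD, n = 3). The intervals do not overlap, and they cover counting error only. The rival Eln set ran the other way, with 15.1%, 48.9% and 43.9% of basal cells, and the Vcan set held 2.86%, 13.1% and 4.63%. The sets compete for cells under the rule, so these shares depend on each other. Every Eln-set gene was least often seen in library 1, Mmp2 in 29.4% of basal cells, against 61.8% and 58.0%. Lgr5 was seen in 22.2%, 8.33% and 7.90% of basal cells, and Dkk3 in 21.4%, 19.3% and 21.4%. Basal cells with 2 or more Lgr5-set genes but as many or more of a rival set numbered 349, 1313 and 1108. How far this competition shaped the shares was not tested. When at least 3 genes of a set were required, the mean share of the Lgr5 set was 11.97%.

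**Figure D1:**
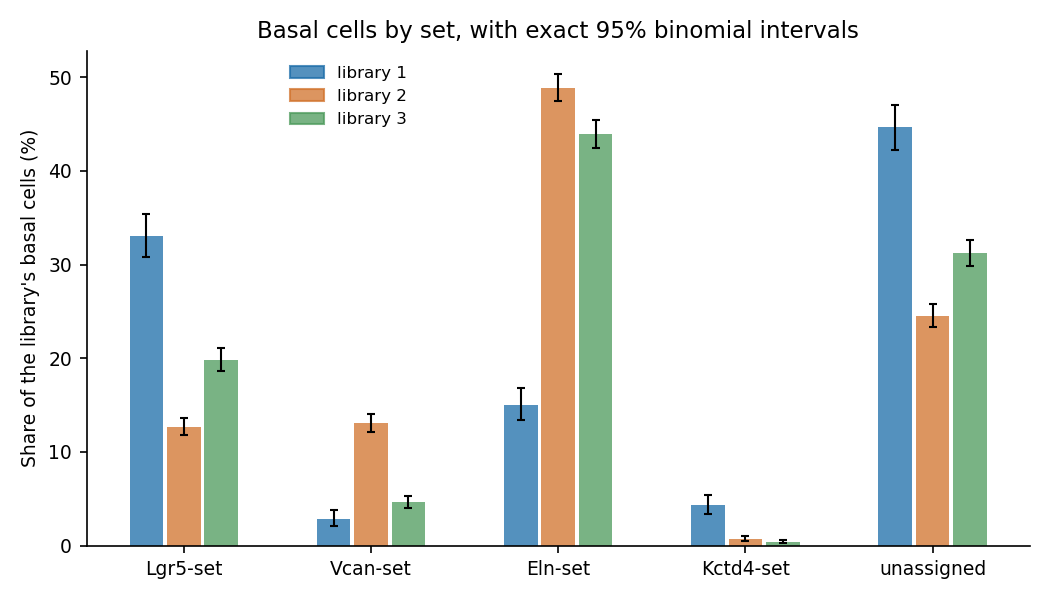
Share of each library's basal cells (y axis, %) in the Lgr5 set, the 3 rival sets and no set (x axis). Bars are libraries and error bars exact 95% binomial intervals. The Lgr5 set made up 33.1% of basal cells in library 1, above the 12.7% and 19.9% of libraries 2 and 3, while the Eln set made up 15.1% in library 1 and 48.9% and 43.9% in the others.

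Promoter sequences are shown for the 3 set genes found in the RefSeq promoter table (build GRCm38.p6, 250 bases before to 50 after the start) and for Cntn2, the gene outside the rule with the largest rise described below. Of 18 genes looked up (the 6 set genes and the 12 leading risers), 12 were in the table. The windows are printed 5′ to 3′ on the gene's strand, and capitals would mark a match to 5 motifs on either strand.
Cxcl14 (chr13:56296502-56296801, minus strand): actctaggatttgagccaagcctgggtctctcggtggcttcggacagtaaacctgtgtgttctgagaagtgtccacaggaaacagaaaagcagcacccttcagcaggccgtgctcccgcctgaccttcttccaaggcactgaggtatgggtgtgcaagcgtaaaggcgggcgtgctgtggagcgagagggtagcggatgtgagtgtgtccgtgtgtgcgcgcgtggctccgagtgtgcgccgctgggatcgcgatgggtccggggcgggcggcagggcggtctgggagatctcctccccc
Grik3 (chr4:125490446-125490745, plus strand): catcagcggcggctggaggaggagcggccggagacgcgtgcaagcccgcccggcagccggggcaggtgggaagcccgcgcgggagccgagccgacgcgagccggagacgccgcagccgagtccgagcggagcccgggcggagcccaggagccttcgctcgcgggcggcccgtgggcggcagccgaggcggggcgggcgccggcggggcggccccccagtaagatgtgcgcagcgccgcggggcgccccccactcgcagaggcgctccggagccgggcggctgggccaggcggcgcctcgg
Scube3 (chr17:28142059-28142358, plus strand): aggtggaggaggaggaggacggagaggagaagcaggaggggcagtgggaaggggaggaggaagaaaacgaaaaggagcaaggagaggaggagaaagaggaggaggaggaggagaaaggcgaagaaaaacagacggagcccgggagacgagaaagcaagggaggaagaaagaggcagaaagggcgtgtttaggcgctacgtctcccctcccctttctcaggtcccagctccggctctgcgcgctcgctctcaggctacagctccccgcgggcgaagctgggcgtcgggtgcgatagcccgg
Cntn2 (chr1:132542891-132543190, minus strand): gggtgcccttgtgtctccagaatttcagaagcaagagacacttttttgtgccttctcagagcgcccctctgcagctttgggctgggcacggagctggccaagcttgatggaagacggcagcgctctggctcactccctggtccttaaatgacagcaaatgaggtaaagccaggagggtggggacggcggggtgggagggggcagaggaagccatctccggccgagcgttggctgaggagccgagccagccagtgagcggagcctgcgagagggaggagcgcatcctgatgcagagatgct
None of these 4 windows held the letters of the box at TATAAA, the box at CCAAT, the TCF/LEF motif CTTTGA, the NFAT motif GGAAAA or the AP-1 motif TGANTCA, so no capitals appear. Of the 8 matched genes not printed, 7 held at least 1 of these motifs: 6 held the box at CCAAT, 3 the TCF/LEF motif (Col6a2, Mme and Rec114), 3 the NFAT motif (Col6a2, Fxyd6 and Mme), 1 the AP-1 motif (Mme) and 0 the box at TATAAA. Of all 32851 windows in the table, the box at TATAAA, the box at CCAAT, TCF/LEF, NFAT and AP-1 motifs were in 13.6%, 37.4%, 16.003%, 23.4% and 7.81%. These shares are per window. Mme, Flnc and Col6a2 have more than 1 window each, and a gene counted when any of its windows held a motif. The counts of genes and these shares are therefore not on the same measure. G and C made up 62.7%, 82.0%, 62.0% and 61.3% of the windows of Cxcl14, Grik3, Scube3 and Cntn2, against a median of 52.7% over all windows.

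The 6 set genes chose the cells, so their levels are a description. In build GRCm38, Lgr5 lies on chromosome 10 (115450311 to 115587780, minus strand), Gfra2 on chromosome 14 (70890120 to 70979838, plus strand) and Dkk3 on chromosome 7 (112116017 to 112159057, minus strand), and all 3 are protein-coding.

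Lgr5 had 322, 195 and 147 CPM in Lgr5-set cells of libraries 1, 2 and 3, against 55.2, 20.8 and 22.3 CPM in other basal cells and 10.2, 3.45 and 3.54 CPM in cells that were not basal. It was highest in library 1 in each of these classes. An Lgr5 UMI was seen in 48.6%, 34.6% and 23.2% of Lgr5-set cells, against 9.24%, 4.51% and 4.11% of other basal cells and 2.75%, 1.19% and 1.06% of cells outside the basal class. Whether the last of these shares comes from free RNA in the droplets was not tested. When each cell was thinned to 1500 UMIs and shallower cells were left out (94, 99 and 285 Lgr5-set cells, against 249, 573 and 1092 other basal cells), the shares were 33.3%, 24.5% and 16.1% in Lgr5-set cells and 6.62%, 2.88% and 2.93% in other basal cells. Of 1126 basal cells with an Lgr5 UMI, 686 (60.9%) were in the set, and the highest count in a member was 9 UMIs.

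Gfra2 averaged 177 ± 17.1 CPM in Lgr5-set cells and 30.3 ± 15.0 CPM in other basal cells. Dkk3 averaged 268 ± 50.6 CPM in Lgr5-set cells and 74.9 ± 11.02 CPM in other basal cells. Unlike Lgr5, Dkk3 was lowest in library 1, with 222, 259 and 322 CPM in Lgr5-set cells of libraries 1, 2 and 3. Scube3 averaged 164 ± 23.98 CPM in Lgr5-set cells and 32.6 ± 1.87 CPM in other basal cells. Grik3 averaged 195 ± 51.9 CPM in Lgr5-set cells and 44.5 ± 12.8 CPM in other basal cells. Cxcl14 was the least selective of the 6, with 2475 ± 154 CPM in Lgr5-set cells, 1715 ± 290 CPM in other basal cells and 93.6 ± 15.8 CPM outside the basal class.

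**Figure D2:**
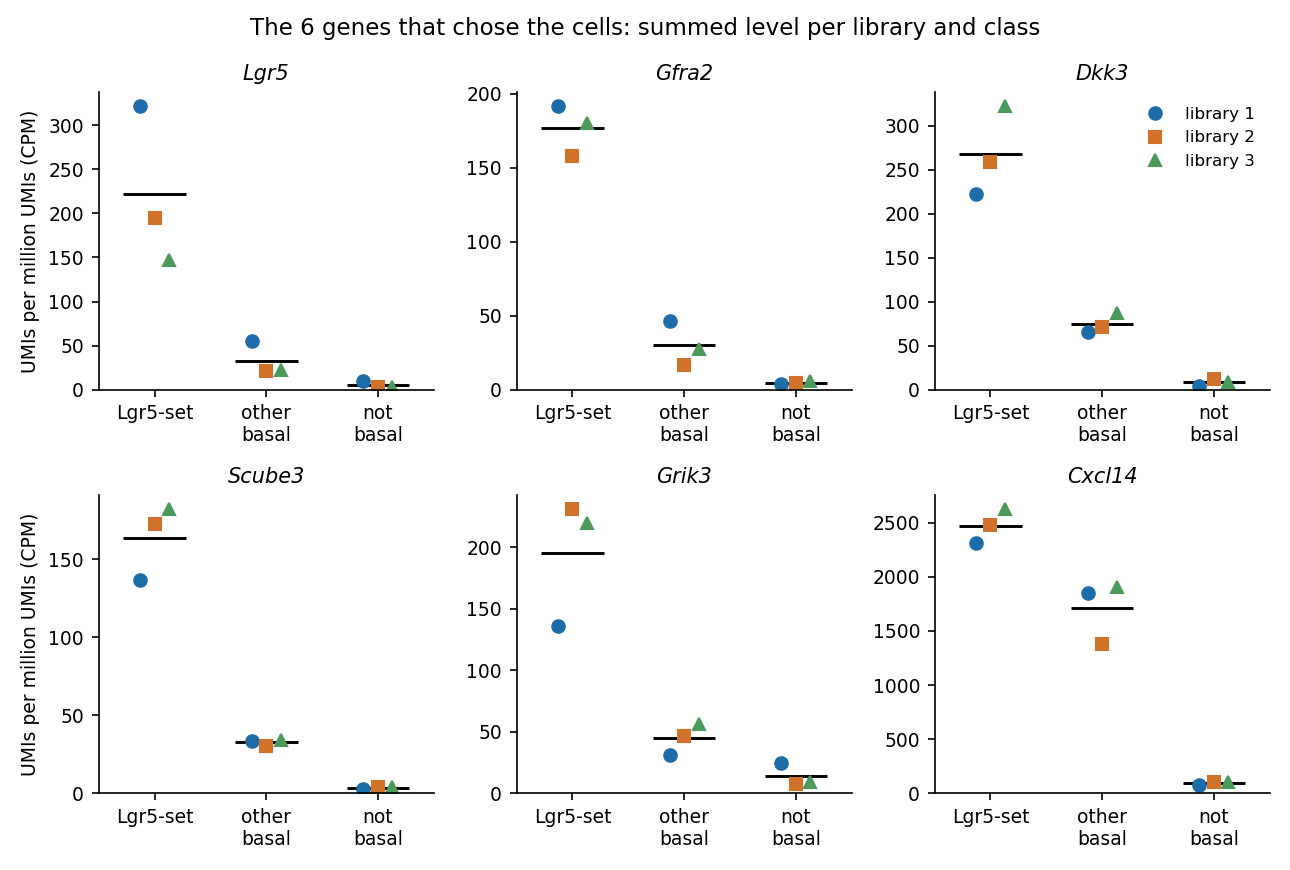
Summed level of the 6 set genes (y axis, CPM, linear from 0) in Lgr5-set cells, other basal cells and cells that were not basal (x axis). Points are libraries and bars their mean. Lgr5-set cells were chosen on these genes, so the gap is a description, and Cxcl14 differs from the other 5 in its high level in other basal cells (1715 CPM against 2475 CPM in Lgr5-set cells).

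Cxcl14 was detected in 90.2%, 89.0% and 92.6% of all basal cells, so for most cells the rule asked for Cxcl14 and 1 more gene. Exactly 2 set genes were seen in 911 members (44.5%), 3 in 784, 4 in 294, 5 in 53 and all 6 in 7. The pattern Cxcl14 with 1 other gene made up 890 members (43.4%). At least 1 of Lgr5, Gfra2 and Dkk3 was present in 1670 members (81.5%), and all 3 together in 63 (3.07%). The other 379 members held none of the 3 genes of the label and entered through Scube3, Grik3 and Cxcl14.

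Members with exactly 2 set genes, just inside the threshold, had a median of 1889, 1998 and 1598 UMIs and 5.47, 5.70 and 5.93 set UMIs per cell in libraries 1, 2 and 3. Basal cells with exactly 1 set gene, just outside, had a median of 1897, 2196 and 1688 UMIs and 3.68, 3.39 and 3.71 set UMIs per cell. Basal cells with 2 or more set genes but as many or more of a rival set numbered 349, 1313 and 1108, with a median of 2450, 2339 and 1976.5 UMIs, deeper in each library than the members with exactly 2 set genes.

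Each set gene was also looked at in cells chosen by the other 5. Lgr5 had 208, 129 and 76.0 CPM in cells chosen without it, against 121, 32.1 and 40.2 CPM in the other basal cells of libraries 1, 2 and 3. Gfra2 had 127, 104 and 92.0 CPM in cells chosen without it, against 81.2, 25.6 and 50.2 CPM in the others. Dkk3 had 136, 164 and 189 CPM in cells chosen without it, against 111, 87.3 and 123 CPM in the others. Scube3, Grik3 and Cxcl14 were likewise higher in the cells chosen by the other 5 genes in all 3 libraries. After thinning to 1500 UMIs per cell, basal cells with an Lgr5 UMI held Gfra2 in 10.7% to 15.6% of cells over the 3 libraries, against 4.26% to 11.5% of basal cells without one. They held Igfbp2 of the Vcan set in 5.95% to 12.6% of cells, against 13.5% to 23.3% of basal cells without an Lgr5 UMI. All 5 other set genes were more often seen with Lgr5 in each of the 3 libraries. Of the rival genes, all 6 of the Vcan set, 4 of 6 of the Eln set and 3 of 6 of the Kctd4 set were less often seen with it in each library. Ntn4 of the Kctd4 set went the other way, in 4.33% to 16.04% of basal cells with an Lgr5 UMI and 2.24% to 10.9% of those without one, higher in all 3 libraries. When one of the other 5 set genes took the place of Lgr5, 4 or 5 of the set genes were more often seen and 2 to 5 of the 6 Vcan-set genes less often in each library. The other rivals were less uniform. Of the 6 Eln-set genes, 0 to 3 were more often seen in each library (3 with Grik3) and 0 to 4 less often. Of the 6 Kctd4-set genes, 2 were more often seen with each of these 5 genes, Ntn4 among them, and 0 or 1 less often. The sets were drawn from earlier results on these same cells, so these co-occurrences are a description.

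Genes outside the rule were then compared between Lgr5-set cells and other basal cells. Cells are not replicates, so UMIs were summed per library and class, and 6 sums were fitted with edgeR's quasi-likelihood test where each library was a block. Calls needed an adjusted p (Benjamini-Hochberg) under 0.05 together with a log2 fold change of 0.5 or more in either direction. The 37 genes of the rule were left out. Of 10246 genes tested, 149 (1.45%) were higher and 159 (1.55%) lower in Lgr5-set cells (3.01% in either direction), and the median log2 fold change of all tested genes was about 0. Levels did not overlap between the classes over the 3 libraries for 8.96% of tested genes. The calls rest on the pairing of the classes by library: without the block, 0 genes were called in either direction with edgeR, and 408 had an unadjusted p below 0.05. Because the classes were cut from the same cells by measured genes, a call says that a gene varies with the set in the fit over these 3 libraries. A call did not need the same sign in each library, and of the 308 called genes 287 had 1 sign in all 3.

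Cntn2, an immunoglobulin-family adhesion protein of axons, had the largest rise of the 12 leading higher genes. It had 23.4, 57.9 and 34.5 CPM in Lgr5-set cells of libraries 1, 2 and 3, against 11.4, 9.51 and 8.94 CPM in other basal cells, without overlap. Its log2 fold change was 2.101 ± 0.79 (SD of the 3 within-library ratios, as for the fold changes that follow; edgeR adjusted p = 9.98e-07).

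Sfrp1, a secreted protein that binds Wnt ligands and Frizzled receptors, had 96.0, 88.6 and 93.9 CPM in Lgr5-set cells, against 51.3, 24.3 and 44.9 CPM in other basal cells. The classes did not overlap, and the log2 fold change was 1.29 ± 0.52 (edgeR adjusted p = 0.00013). F2rl1, the protease-activated receptor PAR2, had 47.6, 32.7 and 37.6 CPM in Lgr5-set cells, against 25.2, 7.97 and 18.9 CPM in other basal cells. Its classes did not overlap, with a log2 fold change of 1.27 ± 0.64 (edgeR adjusted p = 7.07e-05). Gfra1, like the set gene Gfra2 a co-receptor of the GDNF family, had 36.7, 37.5 and 29.1 CPM in Lgr5-set cells, against 14.7, 14.8 and 18.2 CPM in other basal cells. It did not overlap either, with a log2 fold change of 1.09 ± 0.37 (edgeR adjusted p = 5.82e-05).

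Celsr1, an atypical cadherin of planar cell polarity, averaged 33.8 ± 8.34 CPM in Lgr5-set cells and 16.1 ± 0.51 CPM in other basal cells, with a log2 fold change of 1.14 ± 0.43. Mme, the cell-surface peptidase CD10 of basal breast cells, averaged 315 ± 48.4 CPM in Lgr5-set cells and 164 ± 71.7 CPM in other basal cells, with a log2 fold change of 1.03 ± 0.43. Flnc, the actin cross-linker filamin C, averaged 95.3 ± 34.1 CPM in Lgr5-set cells and 47.0 ± 22.4 CPM in other basal cells, with a log2 fold change of 1.08 ± 0.28. Col6a2, a chain of type VI collagen, averaged 29.2 ± 4.06 CPM in Lgr5-set cells and 14.5 ± 5.95 CPM in other basal cells, with a log2 fold change of 1.10 ± 0.50. Lrrn2, a leucine-rich repeat neuronal protein, Trp53i11, Fxyd6, a regulator of the sodium pump, and Rec114 had log2 fold changes of 1.21 ± 0.38, 1.20 ± 0.70, 1.01 ± 0.39 and 1.06 ± 0.67. Rec114 is known from meiosis and overlaps Nptn on the opposite strand, and no source used here says whether the counting used strand. Of these 12 genes, 7 were called without each library in turn. Celsr1, Col6a2, Trp53i11, Rec114 and Mme were not called without library 3, at log2 fold changes of 1.06, 1.13, 1.26, 1.17 and 1.04.

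**Figure D3:**
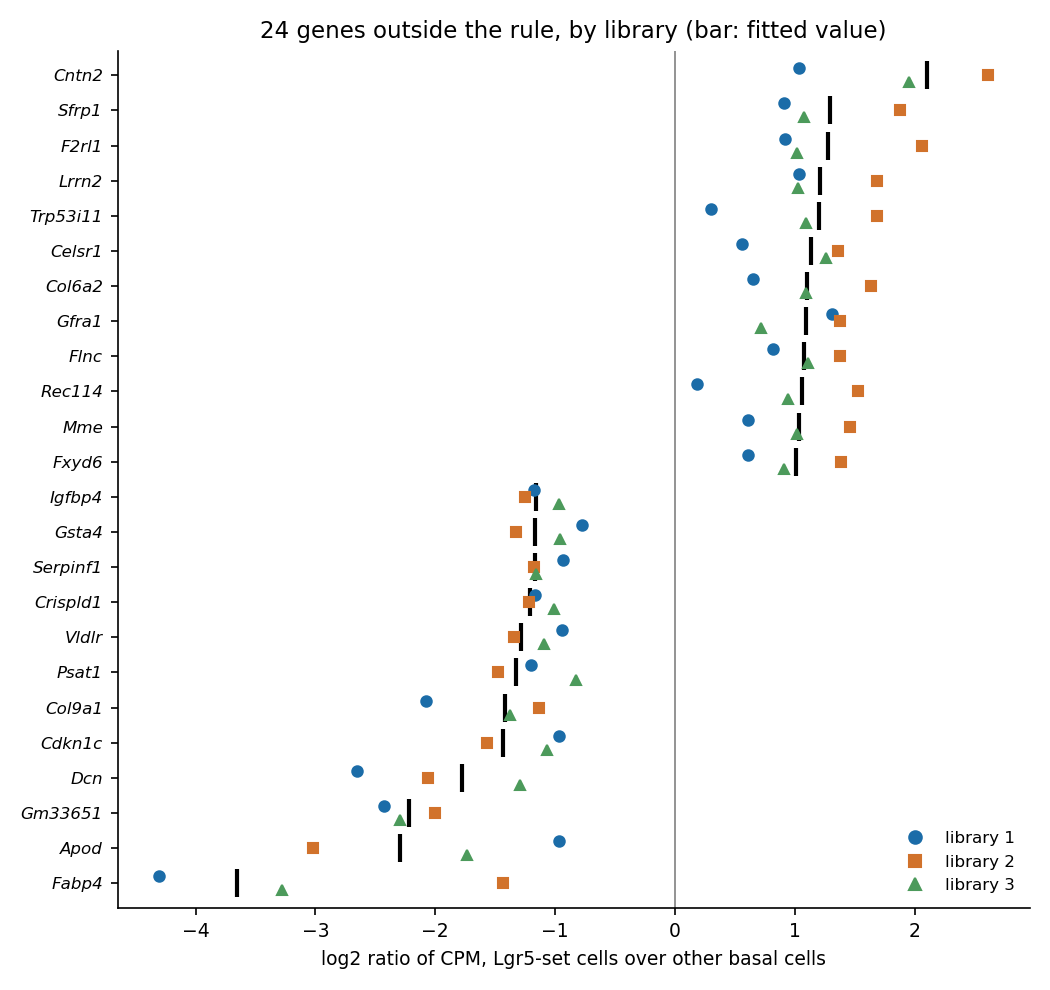
Log2 ratio of CPM in Lgr5-set cells over other basal cells (x axis) for the 12 leading genes of each direction (y axis). Points are libraries and black bars the fitted log2 fold change. Every point of Cntn2 through Fxyd6 lies above 0 and every point of Igfbp4 through Fabp4 below 0, and Cntn2 and Fabp4 mark the ends at 2.101 and -3.66.

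The leading lower genes included genes known from fat, vessel and connective tissue. Fabp4, the fatty acid-binding protein of adipocytes and capillary endothelium, had 3.34, 4.09 and 5.45 CPM in Lgr5-set cells of libraries 1, 2 and 3, against 98.1, 14.6 and 64.4 CPM in other basal cells. The classes did not overlap, and the log2 fold change was -3.66 ± 1.45 (edgeR adjusted p = 3.68e-09). Apod, a lipid-binding apolipoprotein, averaged 6.46 ± 7.63 CPM in Lgr5-set cells and 32.2 ± 25.6 CPM in other basal cells, with a log2 fold change of -2.30 ± 1.04. Dcn, the fibroblast proteoglycan decorin, had 14.2, 53.2 and 111 CPM in Lgr5-set cells, against 98.9, 228 and 275 CPM in other basal cells. Its log2 fold change was -1.77 ± 0.68 (edgeR adjusted p = 0.0479). Scaled by total counts, Dcn averaged 201 ± 91.8 CPM in other basal cells and 104 ± 67.3 CPM in cells that were not basal. A Dcn UMI was seen in 12.3% to 33.7% of other basal cells and in 2.38% to 9.74% of cells that were not basal.

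Summed levels of stromal markers were lower in Lgr5-set cells, but not every marker was. The summed level of 6 fibroblast markers, all 6 detected, was 31.3 to 227 CPM in Lgr5-set cells and 126 to 351 CPM in other basal cells. Dcn made up most of this sum in other basal cells. Of the rest, Col3a1 and Pdgfra averaged lower in Lgr5-set cells, at 9.81 and 2.40 CPM against 21.7 and 4.02 CPM. Col1a1 averaged 12.9 CPM against 13.3 CPM. By library Col1a1 had 4.94, 6.30 and 27.4 CPM, against 4.00, 19.4 and 16.3 CPM, so it was higher in Lgr5-set cells of library 3. Col1a2 and Lum averaged higher in Lgr5-set cells, at 30.1 and 4.79 CPM against 25.7 and 1.81 CPM, but only library 3 was higher. In libraries 1, 2 and 3, Col1a2 had 10.7, 26.6 and 52.9 CPM, against 15.6, 26.8 and 34.8 CPM. Lum had 0, 0.70 and 13.7 CPM, against 0, 2.92 and 2.51 CPM, with 23 UMIs in Lgr5-set cells of library 3. The summed level of 5 endothelial markers was 2.80 to 5.35 CPM in Lgr5-set cells, where Cldn5 was at 0, and 7.45 to 20.8 CPM in other basal cells. That of 5 pericyte markers, all 5 detected, was 14.0 to 24.4 CPM in Lgr5-set cells and 42.4 to 47.0 CPM in other basal cells. Of these markers, Rgs5 of pericytes was called lower, with a log2 fold change of -2.42 ± 1.53 (edgeR adjusted p = 0.00164) and no UMI in Lgr5-set cells of library 1. Cells with UMIs of at least 2 markers of 1 of these types numbered 1, 9 and 17 among Lgr5-set cells, against 16, 202 and 141 among other basal cells. Without them, 139 genes were called higher and 129 lower, of which 134 and 127 were among the calls above. Dcn then had a log2 fold change of -1.96 and Apod of -2.28, both called. Fabp4 and Rgs5 were too low to be tested without these cells, and whether their difference comes from stromal RNA was not tested.

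The first of the other 9 leading lower genes, Gm33651, is a long non-coding RNA that overlaps Gm43616 on the opposite strand. It had 3.34, 49.8 and 35.1 CPM in Lgr5-set cells, against 26.1, 205 and 178 CPM in other basal cells. The gene was lower in Lgr5-set cells of each library, and its log2 fold change of -2.22 ± 0.22 had the smallest adjusted p of the comparison (edgeR adjusted p = 1.46e-14). Igfbp4, a binding protein of insulin-like growth factors, had 21.7, 68.2 and 62.4 CPM in Lgr5-set cells, against 52.1, 165 and 124 CPM in other basal cells, with a log2 fold change of -1.16 ± 0.14. Serpinf1, the secreted factor PEDF, had 28.4, 28.6 and 29.7 CPM in Lgr5-set cells, against 56.6, 67.7 and 68.7 CPM in other basal cells, without overlap and with a log2 fold change of -1.17 ± 0.14. Without the cells with stromal markers, Igfbp4 and Serpinf1 had log2 fold changes of -1.16 and -1.17, both called.

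Cdkn1c, the cell cycle inhibitor p57, averaged 9.19 ± 5.21 CPM in Lgr5-set cells and 25.1 ± 14.3 CPM in other basal cells, with a log2 fold change of -1.44 ± 0.32. Psat1, an enzyme of serine synthesis, averaged 10.8 ± 5.75 CPM in Lgr5-set cells and 27.6 ± 15.5 CPM in other basal cells, with a log2 fold change of -1.32 ± 0.33. Vldlr, a receptor for lipoproteins and reelin, averaged 14.3 ± 3.17 CPM in Lgr5-set cells and 34.8 ± 11.7 CPM in other basal cells, with a log2 fold change of -1.28 ± 0.21. Col9a1, Crispld1 and Gsta4 had log2 fold changes of -1.42 ± 0.49, -1.21 ± 0.11 and -1.17 ± 0.28. Of the 12 leading lower genes, 11 were called without each library in turn, and Apod was too low to be tested without library 3.

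Of 18 tested receptors and co-receptors of R-spondins and Wnts, 0 were called higher and 1 lower, beside 3.01% of all tested genes called, and the median log2 fold change was 0.02. A count of 1 is too small to set the list apart from all genes. The counts of the lists that follow in this comparison stand beside the same 3.01%, and no list was tested against it. Lgr4, the widely expressed R-spondin receptor, averaged 124 ± 20.03 CPM in Lgr5-set cells and 101 ± 8.96 CPM in other basal cells, with a log2 fold change of 0.32 ± 0.29 (edgeR adjusted p = 0.0401), below the size needed for a call. Lgr6, the third R-spondin receptor, averaged 117 ± 59.5 CPM in Lgr5-set cells and 149 ± 76.2 CPM in other basal cells, with a log2 fold change of -0.34 ± 0.06 (edgeR adjusted p = 0.0116), also below that size and lower in Lgr5-set cells of all 3 libraries. The ubiquitin ligases Znrf3 and Rnf43, which remove Frizzled receptors and are held back by R-spondins, had log2 fold changes of -0.33 ± 0.20 and 0.02 ± 0.33. The gene called lower was Ror2, a receptor kinase for Wnt5a, at 3.34, 4.09 and 5.45 CPM in Lgr5-set cells of libraries 1, 2 and 3, against 2.85, 14.7 and 9.94 CPM in other basal cells. It was higher in Lgr5-set cells of library 1 and lower in the others, with a log2 fold change of -1.13 ± 0.95, and was not called without library 2 (-0.63) or without the cells with stromal markers (-1.08).

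Of 10 tested Wnt ligands and secretion genes, 2 were higher and 2 lower, beside 3.01% of all tested genes called. Wnt11 had 39.2, 12.95 and 14.5 CPM in Lgr5-set cells, against 27.3, 4.16 and 7.24 CPM in other basal cells, a log2 fold change of 0.92 ± 0.59, and Wnt10a a log2 fold change of 0.57 ± 0.09. Wnt6 had 12.5, 34.8 and 15.1 CPM in Lgr5-set cells, against 20.8, 49.6 and 39.0 CPM in other basal cells, a log2 fold change of -0.83 ± 0.43. Porcn, the enzyme that adds a lipid to Wnt ligands, had a log2 fold change of -0.66 ± 0.20. Without library 3, none of the 4 was called, at 0.90, 0.56, -0.57 and -0.82 for Wnt11, Wnt10a, Wnt6 and Porcn. Without library 2, Wnt11, Wnt10a and Porcn were not called, at 0.71, 0.54 and -0.52.

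Among 10 tested secreted Wnt modulators other than the set gene Dkk3, Sfrp1 was higher as described and Wif1, another secreted Wnt inhibitor, was lower. Wif1 had 85.9, 123 and 115 CPM in Lgr5-set cells, against 167, 213 and 210 CPM in other basal cells, without overlap, with a log2 fold change of -0.86 ± 0.08 (edgeR adjusted p = 1.84e-08). These secreted Wnt inhibitors moved in opposite directions. Of 9 tested Wnt target genes, 0 were higher and 1, Nkd2, was lower, with a median log2 fold change of -0.33. Axin2, a commonly used readout of Wnt signalling, averaged 12.5 ± 4.11 CPM in Lgr5-set cells and 14.6 ± 2.90 CPM in other basal cells, with a log2 fold change of -0.29 ± 0.40 that was not called. Nkd2, an antagonist induced by Wnt, had 9.18, 10.9 and 14.5 CPM in Lgr5-set cells, against 23.2, 27.97 and 21.0 CPM in other basal cells, a log2 fold change of -1.02 ± 0.43, and was not called without library 2, at -0.82.

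Of 7 tested genes of GDNF-family and neurotrophin signalling, 2 were higher and 1 lower, beside 3.01% of all tested genes called. Besides Gfra1, Ngfr, the neurotrophin receptor p75 found on myoepithelium, had 11.7, 11.6 and 9.69 CPM in Lgr5-set cells, against 6.11, 5.16 and 3.55 CPM in other basal cells. It did not overlap and had a log2 fold change of 1.20 ± 0.28 (edgeR adjusted p = 0.00689), but was not called without library 3, at 1.08. Ncam1, an adhesion protein that can also bind GDNF, averaged 9.95 ± 5.003 CPM in Lgr5-set cells and 20.2 ± 11.5 CPM in other basal cells, with a log2 fold change of -1.02 ± 0.29, not called without library 2 (-0.90) or library 3 (-1.11). The kinase Ret, partner of Gfra1 and Gfra2, was too low to be tested. Of glutamate receptor genes other than the set gene Grik3, 2 passed the filter on low counts and Gria3, an AMPA receptor subunit, was lower, with a log2 fold change of -1.35 ± 0.80, not called without library 2 (-1.12) or library 3 (-1.15).

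Of 15 tested genes proposed as markers of mammary stem cells, 0 were called in either direction (edgeR), 2 had an unadjusted p under 0.05 and 0 were called with DESeq2. Log2 fold changes ran from -0.55 to 1.41, with 6 of the 15 above 0 and a median of -0.07. Procr and Tspan8, both above 0, were named after their values were seen and do not stand for the list. With 3.01% of all tested genes called, a list of this size can hold no call without standing apart from other genes. Procr, the protein C receptor, averaged 9.88 ± 3.66 CPM in Lgr5-set cells and 7.16 ± 3.76 CPM in other basal cells, with a log2 fold change of 0.53 ± 0.64 (edgeR adjusted p = 0.398). Tspan8, a membrane protein of quiescent Lgr5-positive mammary cells, averaged 77.9 ± 27.0 CPM in Lgr5-set cells and 33.6 ± 15.1 CPM in other basal cells. Its log2 fold change of 1.41 ± 1.22 missed the threshold (edgeR adjusted p = 0.524), although its library values did not overlap, and it passed without library 1 (1.78) or library 2 (0.78).

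Of 26 tested contractile genes, 1 was higher and 1 lower, beside 3.01% of all tested genes called. Log2 fold changes ran from -0.65 to 0.56, with 12 of the 26 above 0 and a median of -0.01. Synpo2, an actin-binding protein, had a log2 fold change of 0.56 ± 0.18, and Kcnmb1, a potassium channel subunit of smooth muscle, of -0.65 ± 0.31. Neither was called without library 3, at 0.60 and -0.78, and Synpo2 was also lost without library 1 (0.47) and Kcnmb1 without library 2 (-0.69). Oxtr, with a log2 fold change of 0.38 ± 0.21, and Mylk, with -0.28 ± 0.18, had small adjusted p-values (edgeR, 0.000917 and 0.00217) but were below the size needed for a call.

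Matrix genes split between the classes. Of 23 tested basement membrane genes, 1 was higher and 5 lower, beside 3.01% of all tested genes called. Lama1, a laminin chain, had 66.8, 117 and 134 CPM in Lgr5-set cells, against 116, 260 and 220 CPM in other basal cells, a log2 fold change of -0.90 ± 0.23 (edgeR adjusted p = 3.4e-08). Col4a2 and Nid1, of the type IV collagen and nidogen network, had log2 fold changes of -0.54 ± 0.26 and -0.87 ± 0.19. The higher gene was Col17a1, the hemidesmosome collagen that anchors basal cells, at 348 ± 39.0 CPM in Lgr5-set cells and 248 ± 51.7 CPM in other basal cells, a log2 fold change of 0.52 ± 0.28. Col17a1 and Col4a2 were not called without library 2, at 0.35 and -0.46, or without library 3, at 0.57 and -0.47. Egfl6 and Frem2, the other lower genes, were also lost without either of these libraries, at -0.54 and -0.59 without library 2 and -0.52 and -0.61 without library 3.

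Of 31 tested elastic and interstitial matrix genes, 4 were higher and 5 lower, beside 3.01% of all tested genes called. Postn, the matricellular protein periostin, averaged 1310 ± 210 CPM in Lgr5-set cells and 796 ± 250 CPM in other basal cells, a log2 fold change of 0.76 ± 0.24 (edgeR adjusted p = 9.98e-07). Col6a2, Tnc and Ltbp4 were the other 3 higher genes. Tnc, the matrix glycoprotein tenascin C, had 40.9, 11.6 and 2.42 CPM in Lgr5-set cells of libraries 1, 2 and 3, against 16.3, 5.88 and 3.69 CPM in other basal cells, so library 3 went the other way. It was not called without library 1 (0.54) or library 3 (1.18). Mgp, a matrix protein that restrains calcification, and Fbln2, an elastic fibre protein, had log2 fold changes of -0.86 ± 0.34 and -0.84 ± 0.14. Spon2, Matn2 and Dcn were the other 3 lower genes. Ltbp4 was not called without library 2 (0.37) or library 3 (0.61), Matn2 without library 3 (-0.45), and Dcn when 3 genes of a set were required (-1.55). In other basal cells, the summed fibroblast markers given above were mostly Dcn, a member of this list.

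Of 22 tested matrix proteases and inhibitors, 3 were higher and 4 lower, beside 3.01% of all tested genes called. Plat, tissue plasminogen activator, averaged 120.5 ± 12.8 CPM in Lgr5-set cells and 73.9 ± 28.4 CPM in other basal cells, with a log2 fold change of 0.78 ± 0.45. Adamts2 and Adamts4 had log2 fold changes of 0.76 ± 0.46 and 0.70 ± 0.55. Htra1, a secreted serine protease, averaged 36.5 ± 4.94 CPM in Lgr5-set cells and 74.5 ± 32.8 CPM in other basal cells, with a log2 fold change of -1.05 ± 0.55. Adamts9, Adamts17 and Serpinf1 were the other lower genes, with log2 fold changes of -1.07 ± 0.73, -1.06 ± 0.28 and -1.17 ± 0.14. Without library 3, Serpinf1 alone of the 7 was called, and the others had log2 fold changes of 0.86 (Plat), 0.67 (Adamts2), 0.74 (Adamts4), -0.97 (Htra1), -0.90 (Adamts9) and -1.14 (Adamts17). Adamts4 and Adamts17 were also not called without library 2, at 0.42 and -0.90.

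**Figure D4:**
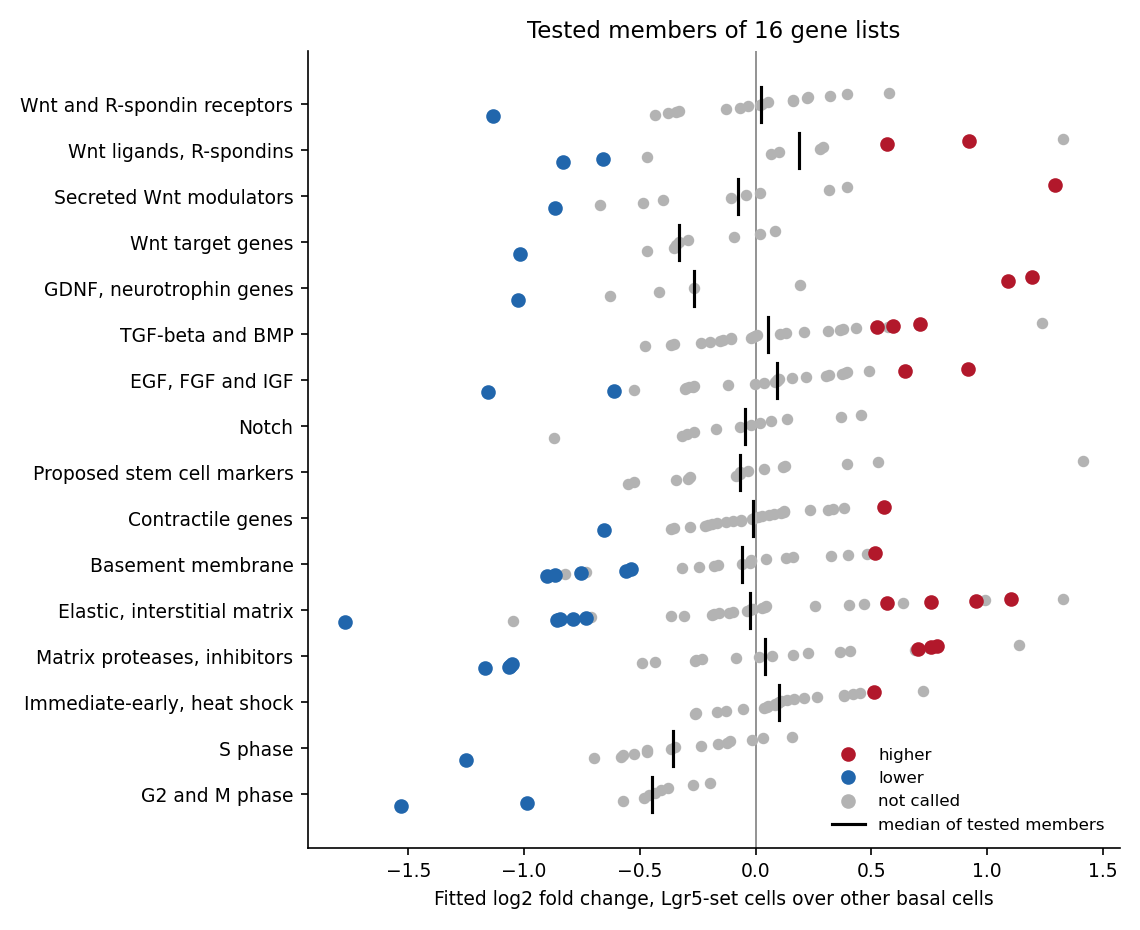
Fitted log2 fold change of Lgr5-set cells over other basal cells (x axis) for every tested member of 16 gene lists (y axis). Points are genes, coloured by whether they were called higher, lower or not called, and black bars are list medians. Medians lie between -0.45 for G2 and M phase genes and 0.19 for Wnt ligands and R-spondins, and most members of each list were not called.

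Growth factor genes were called in small numbers. Of 26 tested genes of the TGF-beta and BMP families, 3 were higher and 0 lower, beside 3.01% of all tested genes called. Fstl3, an inhibitor of activin, had 49.2, 38.9 and 63.6 CPM in Lgr5-set cells, against 35.0, 23.6 and 35.8 CPM in other basal cells, a log2 fold change of 0.71 ± 0.18. Id3, a BMP-induced inhibitor of transcription factors, and the ligand Tgfb2 had log2 fold changes of 0.59 ± 0.42 and 0.53 ± 0.08. Without library 3 none of the 3 was called, at 0.61, 0.62 and 0.54, nor were Id3 and Tgfb2 without library 2 (0.39 and 0.56) or Tgfb2 without library 1 (0.49).

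Of 27 tested genes of EGF, FGF and IGF signalling, 2 were higher and 2 lower, beside 3.01% of all tested genes called. Fgfr3, a receptor for FGFs, averaged 29.7 ± 7.42 CPM in Lgr5-set cells and 16.7 ± 6.97 CPM in other basal cells, with a log2 fold change of 0.92 ± 0.40. Hbegf, an EGF receptor ligand, had a log2 fold change of 0.64 ± 0.34. Igfbp5, an IGF-binding protein, had 921, 2691 and 2075 CPM in Lgr5-set cells, against 1518, 3776 and 3232 CPM in other basal cells, with a log2 fold change of -0.61 ± 0.12 (edgeR adjusted p = 3.42e-10). Igfbp4 fell as given above, so both lower genes are binding proteins of IGFs. Fgfr3 and Hbegf were not called without library 3, at 0.70 and 0.63, and Hbegf was not called without library 2, at 0.51.

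Cell cycle genes were low in both classes. Of 10 tested genes of G2 and M phase, 0 were higher and 2 lower, beside 3.01% of all tested genes called. All 10 had a negative log2 fold change, and their median was -0.45. Cdk1, the mitotic kinase, had 0, 4.77 and 1.82 CPM in Lgr5-set cells, against 3.26, 8.5998 and 7.95 CPM in other basal cells, and Mki67 averaged 4.62 ± 2.56 CPM in Lgr5-set cells and 9.04 ± 6.56 CPM in other basal cells. Of 16 tested genes of S phase, 1 was lower, Gins2, with a log2 fold change of -1.25 ± 0.20, not called without library 3 (-1.17). Cells that held Mki67 or Top2a, both markers of division, made up 1.44%, 2.28% and 1.59% of Lgr5-set cells, against 1.24%, 3.63% and 2.84% of other basal cells, so library 1 did not share the direction of the others. The Vcan set, part of the other basal cells, held 2.08%, 9.48% and 10.7% of such cells at a median of 3074, 3115 and 2663 UMIs, deeper than Lgr5-set cells. Mki67 was not called without library 2 (-1.19) or library 3 (-0.64), and Cdk1 could be tested only without library 1 (-1.34).

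Transcription factor and junction genes were mostly not called. Of 31 tested basal transcription factors, 2 were lower: Etv5, an ETS factor downstream of FGF signals, had 58.4, 55.2 and 46.6 CPM in Lgr5-set cells, against 71.7, 131 and 99.9 CPM in other basal cells, a log2 fold change of -0.95 ± 0.51, and Tbx2 had a log2 fold change of -0.80 ± 0.28. Without library 3 neither was called, at -0.85 and -1.06, nor was Tbx2 without library 2 (-0.60). Of 13 tested basal keratin and junction genes outside the rule, 1 was higher, the desmosome protein Dsp, with 247, 283 and 329 CPM in Lgr5-set cells, against 207, 160 and 213 CPM in other basal cells, and it was lost without library 2 (0.46) or library 3 (0.56). Of 12 tested Notch genes, 8 hedgehog genes, 8 Hox and positional genes, 18 genes of MHC and interferon response, 12 milk protein genes and 17 luminal genes, 0 were called with edgeR or DESeq2, and 3, 0, 1, 4, 3 and 7 had an unadjusted p under 0.05 in the same order of lists. Of 23 immediate-early and heat shock genes, which can rise during dissociation, 1 was called, Dusp1, at 575 ± 18.6 CPM in Lgr5-set cells and 408 ± 69.6 CPM in other basal cells, and it was not called without library 2 (0.38).

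Single members of the remaining lists were called. Slit2, a guidance ligand, had 14.2, 15.7 and 17.6 CPM in Lgr5-set cells, against 24.4, 36.6 and 29.5 CPM in other basal cells, and the guidance ligand Ntn1 had a log2 fold change of 0.79 ± 0.28, out of 30 tested axon guidance genes. Of 24 tested integrin and adhesion genes, Itga8 and Ncam1 were lower. Of 15 tested chemokines and cytokines, Csf3 was higher, with 71.8, 5.45 and 10.9 CPM in Lgr5-set cells, against 39.9, 3.35 and 8.09 CPM in other basal cells, so most of its UMIs came from library 1. Of 11 tested genes of the glucocorticoid response, the metallothionein Mt2 was higher and Tsc22d3 lower, and both were highest in library 1 in both classes. Without library 3, Slit2, Ntn1, Itga8, Csf3, Mt2 and Tsc22d3 were not called, at -1.05, 0.71, -0.40, 0.82, 0.49 and -0.67. Without library 2 this held for Slit2 (-0.76) and Mt2 (0.48), and without library 1 for Ntn1 (0.69) and Csf3 (0.52).

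Lgr5-set cells were next set against the 3 rival sets, all of which had to show 2 genes of a set. The contrast of Lgr5-set cells with the mean of the Vcan, Eln and Kctd4 sets was fitted with edgeR on 12 sums with the library as a block. Of 9180 genes tested, 434 (4.73%) were higher and 110 (1.2%) lower in Lgr5-set cells, and for 1.42% the Lgr5-set values overlapped with none of the 3 sets. Of the 544 called genes, 462 had 1 sign over the mean of the rival sets in all 3 libraries. The Kctd4 set held 73, 36 and 18 cells in libraries 1, 2 and 3, and 11 of the 434 higher genes had no UMI in it. With the mean of the Vcan and Eln sets alone, an alternative chosen after seeing the data, 429 genes were higher and 271 lower. Against each set by itself, 636 were higher and 495 lower over the Vcan set, 269 and 242 over the Eln set, and 157 and 13 over the Kctd4 set. This comparison uses the same Lgr5-set cells as the one before.

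Cntn2 had 24.3, 60.0 and 35.9 CPM in Lgr5-set cells, against 30.3, 8.28 and 7.35 CPM in the Vcan set, 8.70, 6.91 and 7.08 CPM in the Eln set and 17.3, 24.4 and 0 CPM in the Kctd4 set (scaled with the factors of this fit). In library 1, where the Vcan set holds 48 cells, the Vcan set was higher. Col6a1 and Col6a2, chains of type VI collagen, had log2 fold changes of 1.84 ± 0.70 and 1.84 ± 0.51. Against other basal cells, Col6a2 was called at 1.10 and Col6a1 was not, at 1.33 (edgeR adjusted p = 0.296). Col6a1 had 76.5, 68.5 and 67.4 CPM in Lgr5-set cells, against 36.3, 11.7 and 9.19 CPM in the Vcan set, 26.1, 10.4 and 23.96 CPM in the Eln set and 46.2, 0 and 22.2 CPM in the Kctd4 set, without overlap. Over the Kctd4 set by itself it was not called, at 1.34 (edgeR adjusted p = 0.133). Slpi, a secreted protease inhibitor also made by luminal cells, had 6431, 3574 and 3660 CPM in Lgr5-set cells, against 1465, 315 and 362 CPM in the Vcan set, 3981, 844 and 1207 CPM in the Eln set and 4588, 463 and 1221 CPM in the Kctd4 set. It was higher in Lgr5-set cells of all 3 libraries, with a log2 fold change of 2.02 ± 0.87 (edgeR adjusted p = 0.008). Against other basal cells Slpi was not called, at 1.23 (edgeR adjusted p = 0.468). The other named higher genes were Gfra1, Batf, Iqgap2 and Srxn1, and the log2 fold changes of Gfra1 and Batf were 1.34 and 1.27 without the Kctd4 set, against 2.02 and 1.88 with it. Srxn1 had no UMI in the Kctd4 set, so its fitted value is no bound, and without that set its log2 fold change was 0.98. Without library 2, Gfra1 and Batf had 3.42 and 3.31, Batf was not called without library 1 (1.33), and Slpi was not called without library 3 (1.97).

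Among the lower genes, Gm33651 had 3.48, 51.5 and 36.5 CPM in Lgr5-set cells, against 54.5, 308 and 384 CPM in the Vcan set, 57.4, 212 and 190 CPM in the Eln set and 11.5, 207 and 111 CPM in the Kctd4 set. Lgr5-set cells were the lowest in each library. Psat1 averaged 11.2 ± 5.96 CPM in Lgr5-set cells, against 65.5 ± 26.7, 24.7 ± 8.46 and 42.3 ± 28.1 CPM in the Vcan, Eln and Kctd4 sets. Trpm3, a cation channel, averaged 6.56 ± 0.77 CPM in Lgr5-set cells, against 36.3 ± 10.7, 17.8 ± 4.17 and 25.4 ± 10.0 CPM in the 3 sets, without overlap. Opcml, an adhesion protein, averaged 3.33 ± 2.62 CPM in Lgr5-set cells, against 35.6 ± 26.8, 16.3 ± 4.09 and 16.3 ± 28.1 CPM in the 3 sets. Arhgdib, Enpp5, Tex36 and Cdk1 were the other named lower genes. Tex36 was not called without library 1 (-1.98) or library 2 (-0.29), where all libraries gave -2.02. Arhgdib was lost without library 3 (-1.78), Enpp5 without library 1 (-1.51) or library 3 (-1.50), and Cdk1 without library 1 (-2.03) or library 3 (-1.58). Cdk1 and Opcml were too low to be tested without library 2.

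Over the rival sets, 3 lists of inducible genes held several calls, and the difference from their counts over other basal cells was not tested. Of 23 immediate-early and heat shock genes, 7 were higher and 0 lower, of 11 glucocorticoid response genes 5 and 1, and of 14 chemokines and cytokines 6 and 0, beside 4.73% of all tested genes higher. Their median log2 fold changes were 0.25, 0.48 and 0.62, against 0.04 over all tested genes. Atf3, a stress-induced transcription factor, had 2112, 1733 and 1999 CPM in Lgr5-set cells, against 1502, 693 and 961 CPM in the Vcan set, 1546, 691 and 1090 CPM in the Eln set and 1350, 1097 and 866 CPM in the Kctd4 set. It did not overlap, with a log2 fold change of 0.90 ± 0.31 (edgeR adjusted p = 6.22e-24), while against other basal cells it was not called, at 0.72 (edgeR adjusted p = 0.346). The metallothionein Mt2 had 8140, 2675 and 4435 CPM in Lgr5-set cells and averaged 2303 ± 1482, 3378 ± 2206 and 2192 ± 1293 CPM in the Vcan, Eln and Kctd4 sets, with a log2 fold change of 1.01 ± 0.18. The chemokine Cxcl16 had 127, 60.01 and 65.5 CPM in Lgr5-set cells and averaged 44.3 ± 27.2, 62.0 ± 44.2 and 31.1 ± 7.80 CPM in the 3 sets, with a log2 fold change of 1.01 ± 0.19. Both were highest in Lgr5-set cells in each library. Cxcl2, Csf3, Il6 and Lif, 4 of the 6 called chemokines and cytokines, did not go the same way in all 3 libraries. Without library 1, 3 chemokines and cytokines were called higher, and with the mean of the Vcan and Eln sets alone 3 of them and 3 glucocorticoid response genes were. Without the library as a block, 0, 1 and 0 of the 3 lists were higher.

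The 24 leading genes of the first comparison were also described in all basal cells split by 1 set gene at a time. Basal cells with an Lgr5 UMI had higher levels of 11 of the 12 leading higher genes in all 3 libraries, and lower levels of 10 of the 12 leading lower genes. These genes were picked for their difference in Lgr5-set cells, and 686 of the 1126 basal cells with an Lgr5 UMI are members, so the choice of genes and cells largely fixes these directions and the counts support nothing by themselves. With Gfra2 as the split these counts were 10 and 11, with Scube3 11 and 10, with Grik3 9 and 10, with Dkk3 11 and 6, and with Cxcl14, which 9913 of the 10939 basal cells hold, 7 and 3. Fxyd6, Lrrn2 and Mme were higher in all 3 libraries under each of the 6 splits, and Serpinf1 lower. Sfrp1, Col6a2 and Flnc were higher and Igfbp4, Crispld1 and Gm33651 lower under each split but that by Cxcl14. For the lower genes, the median log2 ratio was -0.04 with Cxcl14 and -0.24 with Dkk3, against -1.23 with Gfra2 and -0.997 with Lgr5. Fabp4, with few UMIs, was lower in all 3 libraries in cells with Lgr5, Gfra2 or Cxcl14.

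**Figure D5:**
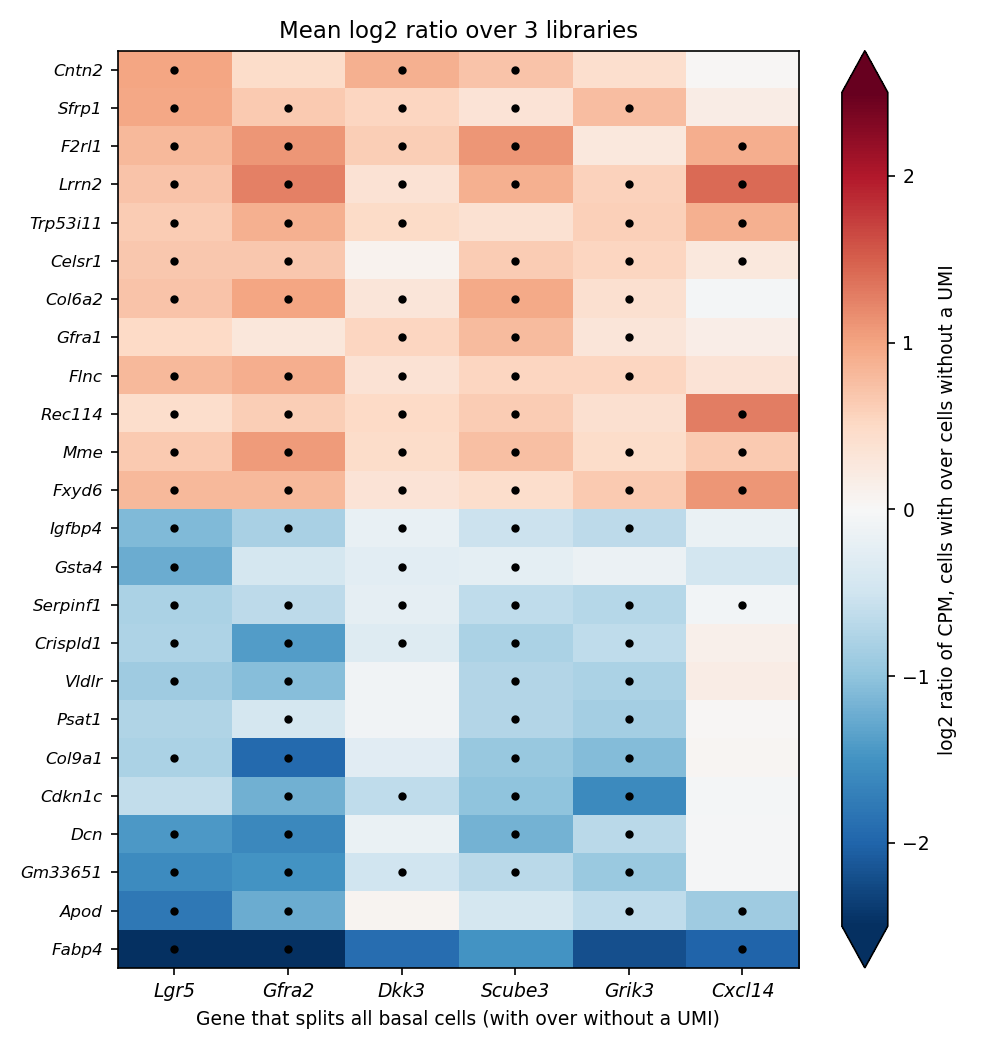
Mean log2 ratio over 3 libraries (colour) of the 24 leading genes (y axis) between all basal cells with and without a UMI of the set gene on the x axis. A dot marks the same sign in all 3 libraries. The Lgr5 column has dots at 11 of 12 leading higher and 10 of 12 leading lower genes, while among the lower genes the Dkk3 column has 6 dots and the Cxcl14 column 3.

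Within the Lgr5 set, members with and without an Lgr5 UMI differed less. Members without an Lgr5 UMI still hold at least 2 set genes. The leading genes were picked for their difference between members and other basal cells. The rule and this choice of genes largely fix the smaller difference, which supports nothing by itself. Of the 12 leading higher genes, 3 were higher with Lgr5 in all 3 libraries: Lrrn2, Flnc and Fxyd6, with mean log2 ratios of 0.32 ± 0.19, 0.36 ± 0.06 and 0.36 ± 0.12. Rec114 went the other way, with -0.53 ± 0.46. Of the 12 leading lower genes, 6 were lower with Lgr5 in all 3 libraries, among them Apod at -1.59 ± 1.01 and Igfbp4 at -0.47 ± 0.11. Members with an Lgr5 UMI numbered 270, 212 and 204, against 286, 401 and 676 without 1, so these splits have fewer UMIs behind them than those over all basal cells.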

How the data were processed

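Each library came as a table of raw counts of UMIs, gene symbol by cell barcode, deposited without normalization; Cell Ranger 2.1.0 and mm10 stand in the submitters' processing notes, and no source used here gives the annotation or the calling of cells. Barcodes with at least 500 genes and under 10% mitochondrial UMIs were kept. Doublets were limited only by the rule's ratio of basal to luminal UMIs; removing the cells with the highest Scrublet scores (scanpy 1.11.5, 340 to 982 cells a library) was an alternative.

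Counts were summed per library and class and compared with edgeR 4.0.16 in R 4.3.3 (quasi-likelihood, two-sided, TMM factors, filterByExpr, library as a block, 2 residual degrees of freedom against other basal cells), after the scripts were tested on simulated data. Levels of tested genes are TMM-normalised CPM, and levels of set genes and markers are scaled by total counts alone. Within-library log2 ratios add a prior count of 2, and ratios of the single-gene splits a pseudocount of 1 CPM. The library pairs the classes by construction, since both come from the same suspension. Deviations of both classes correlated across genes at 0.66, 0.47 and 0.53 within libraries 1, 2 and 3, and at most at 0.22 between libraries.

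The members, gene lists and named genes were chosen with earlier results of these data known. Named were the 12 called genes of largest change per direction (8 against the rival sets) with 1 sign in all libraries and at least 20 CPM in a class, up to 4 called members per list, and Lgr4, Lgr6, Znrf3, Rnf43, Axin2 and Ret. Oxtr, Mylk, Procr, Tspan8, Postn, Fbln2, Spon2, Ltbp4, Matn2, Col4a2, Col17a1, Plat, Adamts2 and Adamts4 were named in the comparison with other basal cells after their values were seen, as were Atf3, Mt2, Cxcl16, Cxcl2, Csf3, Il6 and Lif in that with the rival sets. Of 764 entries in 37 lists, 742 are in the tables. Gene positions are from GENCODE vM21 (GRCm38); 40 of 87 annotated genes overlap another gene, and their counts are uncertain in so far as strand was not used. Alternatives changed the normalization, test (DESeq2 1.42.0), filters, depth, set threshold and libraries.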

Additional observations from a re-analysis of the deposited data

How the results depend on the processing

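Counts of called genes moved with several choices. For Lgr5-set cells over other basal cells (149 higher, 159 lower), no replicate block, which ignores the pairing by library, gave 0 and 0. DESeq2 gave 79 and 42, 3 genes of a set 86 and 67, and other basal cells matched on total UMIs 96 and 95. Without a filter on low counts 264 were lower, and with cells thinned to 1500 UMIs before the classes were made 87 were lower. Leaving out each library in turn gave 39 to 281 higher and 45 to 263 lower genes, lowest without library 3 and highest without library 1, where the fit holds 4 sums. Over the 3 rival sets (434 higher, 110 lower), no replicate block gave 78 and 12 and DESeq2 243 higher. Thinning after or before the classes were made gave 65 and 69 lower, and thinning before gave 281 higher. With the Vcan and Eln sets alone 271 were lower. Leaving out each library gave 278 to 326 higher and 58 to 75 lower genes. The cause of these shifts was not tested.

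Over 1518 values of named genes under all alternatives, 1166 kept direction and side of the threshold, 332 fell below it, 15 rose above it and 5 changed sign. All 5 belong to Rnf43 (0.02), at -0.021 without a filter on low counts, -0.10 thinned before the classes, -0.21 with 3 genes of a set and -0.00075 with a mitochondrial share under 5%, and in the range of -0.14 to 0.14 over the fits without 1 library, negative without library 1. The 24 leading genes kept their direction in all 331 values and their call in 295. Of 71 named genes called against other basal cells, 66, 47 and 27 stayed called without library 1, 2 and 3, of 71, 69 and 67 that could be tested. Fabp4 had -1.50 when cells were thinned before the classes were made and -2.93 without cells with high Scrublet scores, not called in either. Batf had 0.06 when thinned before the classes were made. The share of basal cells in the Lgr5 set lay between 11.97% and 26.5%. Genes under about 10 CPM rest on few UMIs per sum, and a difference not called there was not detectable at this depth.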
